A study of Mus musculus with 4 samples.

Results

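The immunity-related GTPases (IRG proteins) and the giant GTPase Gvin1 are interferon-inducible GTPases of the mouse. Their genes *Iigp1*, *Irgm1*, *Irgm2*, *Igtp*, *Ifi47*, *Tgtp1*, *Tgtp2* and *Gvin1*, 8 of the 55359 genes in the count table, were followed in T8 leukemia cells with and without re-expressed IRF4. The list names a gene family, and the family was chosen from the comparison of IRF4-RV with EV-RV, in which they were already known to stand higher. The values of that comparison are therefore given as a description, and no test is read from them. The lists of relatives, partners and pathway genes were also chosen with earlier results of these data known. Their counts of called genes and adjusted p-values in that comparison are descriptions as well.

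IRG proteins defend cells from within, against parasites and bacteria that live inside vacuoles. The effector proteins of the family (encoded by *Iigp1*, *Ifi47*, *Tgtp1* and *Tgtp2*) load onto the membrane of such a vacuole and disrupt it, while the regulatory IRGM proteins (encoded by *Irgm1*, *Irgm2* and *Igtp*) sit on the membranes of the cell and hold the effectors in the inactive, GDP-bound form there. Interferon-γ is their best known inducer, and the ubiquitin-like conjugation machinery of autophagy and the guanylate-binding proteins (GBPs) take part in placing them on membranes. *Gvin1* encodes a much larger interferon-inducible GTPase of another family, the very large inducible GTPases.

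T8 is a pB-ALL cell line grown from the tumor of a single *Irf4*-/- mouse. Its *Jak3* gene is described as carrying a somatic mutation. All 4 libraries are of *Irf4*-/- T8 cells. They were transduced with a retrovirus encoding GFP alone (EV-RV, 2 libraries) or GFP together with IRF4 (IRF4-RV, 2 libraries) and collected a day later, so IRF4 here came from a viral promoter in 1 line. The sources do not tie the 2 libraries of a group to separate cultures, so that p-values measure only the spread between these samples, which may be technical.

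The libraries held between 31230223 and 37817752 counts. A level under 3 counts, which is 0.0824 to 0.0952 CPM depending on the library (CPM, counts divided by the library size after TMM scaling), was not taken as shown. This limit covers counting error only. The counts of *Irf4* were 8070 and 7600 in EV-RV libraries and 95578 and 90693 in IRF4-RV libraries. The EV-RV vector does not encode IRF4, yet reads were assigned to *Irf4* in these *Irf4*-/- cells, and their origin was not tested. The counts thus do not set absence against presence of *Irf4* reads. In IRF4-RV libraries, reads from the vector and from the locus are not separated. The pre-B cell markers *Cd79a*, *Cd79b*, *Pax5*, *Ebf1*, *Igll1*, *Vpreb1*, *Dntt* and *Il7r* were present in every library. *Rag1*, which encodes a subunit of the V(D)J recombinase, was counted at most 1 time. Of 14637 genes tested with edgeR, 2340 were higher and 2009 lower with IRF4-RV at an FDR of 0.1, that is 53.8% of the called genes higher. When TMM factors were left out of the scaling, 1743 were higher and 2867 lower, and 37.8% of the called genes were higher.

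The promoters are shown first, since interferon-responsive genes are recognised by short DNA motifs upstream of their start. RefSeq (GRCm38.p6) windows of 300 bases were used for 6 of the 8 genes, from 250 before to 50 after the start. The interferon-stimulated response element (ISRE, searched as GAAANNGAAA), to which IRF proteins bind, occurred in 3.44% of the 32851 mouse windows of this length, on either strand. The interferon-γ-activated site (GAS, searched as TTCNNNGAA), which takes part in the response to interferon-γ, occurred in 8.3%, and both occurred in 0.454%. The ETS-IRF composite element (searched as GGAANNGAAA), to which IRF4 binds together with an ETS factor, occurred in 2.72%.

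The stretches upstream of these 6 genes and of the relative *Gm12250* are printed to show the motifs that they share.
Igtp: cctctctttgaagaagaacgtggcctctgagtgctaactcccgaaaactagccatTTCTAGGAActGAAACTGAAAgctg
Irgm2: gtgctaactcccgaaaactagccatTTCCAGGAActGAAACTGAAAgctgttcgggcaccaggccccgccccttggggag
Tgtp1: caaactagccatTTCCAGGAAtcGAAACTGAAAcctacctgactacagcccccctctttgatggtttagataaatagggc
Tgtp2: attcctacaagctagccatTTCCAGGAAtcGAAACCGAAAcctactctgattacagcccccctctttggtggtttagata
Irgm1: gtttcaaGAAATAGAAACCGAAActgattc
Ifi47: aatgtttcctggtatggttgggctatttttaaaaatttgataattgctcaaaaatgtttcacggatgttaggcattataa
Gm12250: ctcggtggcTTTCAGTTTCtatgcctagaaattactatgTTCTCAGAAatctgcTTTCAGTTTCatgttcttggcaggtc
The capitals mark matches to the ISRE and the GAS. The stretches are written 5′ to 3′ on the strand of the gene and run from base -100 to base -21 before the RefSeq start, except that for *Irgm1* the 30 bases around its site are shown, since the site lies within the first exon of another annotated *Irgm1* transcript. On chromosome 11 of GRCm38 they are 11:58199456-58199535 for *Igtp*, 11:58214877-58214956 for *Irgm2*, 11:48992267-48992346 for *Tgtp1*, 11:49064233-49064312 for *Tgtp2*, 11:48871428-48871457 for *Irgm1*, 11:49076487-49076566 for *Ifi47* and 11:58183743-58183822 for *Gm12250*. The RefSeq gene table lists *Gm12250* as *Irgb10*, a close relative of the family. *Igtp*, *Irgm2*, *Tgtp1* and *Tgtp2* held the same arrangement, a GAS, 2 bases and an ISRE on the strand of the gene, with the GAS starting at -45, -75, -88 and -81. In each of them an ETS-IRF match overlapped both motifs, so that the 3 matches share bases and are not separate elements. This arrangement was searched after it had been seen in these stretches. It occurred in 5 of the 32851 windows (0.0152%), and all 5 belong to the family or its relatives, the fifth being *Gm12185*. The neighbouring genes share ancestry as well as motifs, and the longest identical run upstream of the start was 55 bases between *Irgm2* and *Igtp*, 27 bases between *Tgtp1* and *Tgtp2*, and 20 bases between *Irgm2* and *Tgtp1*. *Irgm1* held a pair of ISRE matches that overlap each other, starting at -30 and -24, and no GAS. *Gm12250* held ISRE matches on the opposite strand at -91 and -46 with a GAS at -61 between them. Among the other relatives whose windows were used, *Gm5431* held an ETS-IRF match alone, and *9930111J21Rik1* and *Gm1966* held 1 ISRE match each. *9930111J21Rik2* and *Irgq* held none of the 3 motifs. The *Ifi47* window held none of the 3 motifs, and *Ifi47* had the highest level per length of the 8 genes. Only 1 start was scanned for each gene, and whether the counted *Ifi47* RNA begins at that start was not tested. A match is a description of the letters, and binding was not measured.

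**Figure D1:**
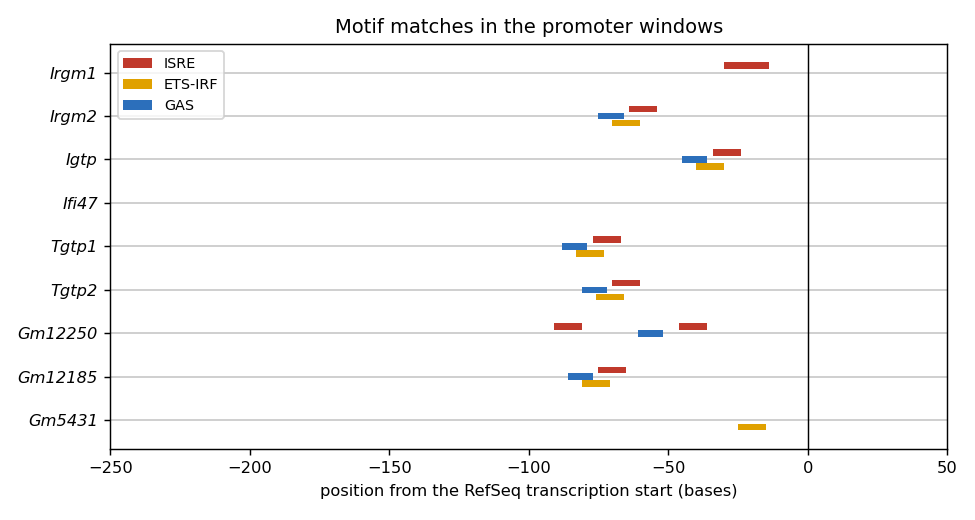
Matches to the ISRE, the GAS and the ETS-IRF composite (coloured bars) in RefSeq promoter windows, by distance in bases from the transcription start. Shown are the 6 genes whose windows were used and 3 of the relatives. *Igtp*, *Irgm2*, *Tgtp1* and *Tgtp2* show the overlapping trio within 100 bases of the start, *Irgm1* shows its overlapping ISRE pair as 1 bar, and *Ifi47* shows none.

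All 8 genes passed the filter on low counts, *Iigp1* only through its IRF4-RV libraries. In all 8 both IRF4-RV libraries lay above both EV-RV libraries, which was the case for 31.3% of all genes tested. All 8 were called higher at an FDR of 0.1, as were 16.0% of all genes tested, while 13.7% were called lower. Both counts repeat what the family was chosen for. Summed over the family, the level was 203.9 and 206.1 CPM in EV-RV cells against 1059 and 1083 CPM in IRF4-RV cells, 5.22-fold higher. The median log2 fold change of the 8 genes was 2.46, with a range from 2.08 to 7.84, while the median of all genes tested was 0.00726. By log2 fold change the smallest of the 8 ranked 235th among the 14637 genes. In bulk RNA, more cells that express a gene and more RNA per cell cannot be told apart.

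Markers of other cells were measured beside these values. The summed level of 9 macrophage markers was between 0.73 and 1.13 CPM in the 4 libraries, and *Adgre1*, *Marco* and *Mertk* were at 0 counts in every library. The summed level of 9 T and NK cell markers was between 1.27 and 1.79 CPM, with *Cd8a* and *Ncr1* at 0 counts throughout. *Klrb1c* was the highest of them, at 42 and 33 counts in EV-RV cells against 35 and 54 counts in IRF4-RV cells. *Gzma* had 0 and 1 counts in EV-RV cells against 5 and 7 counts in IRF4-RV cells. Its ratio was 11.1, with an interval from 1.64 to 474 that covers counting error only. *Cd3e* and *Nkg7*, each at 2 and 1 counts, and *Cd4*, at 3 and 0 counts, fell to 0 counts with IRF4-RV. Of 8 stroma markers, 6 were tested and 0 were called between IRF4-RV and EV-RV at an FDR of 0.1. Their sum was 52.9 and 99.8 CPM in EV-RV cells against 52.3 and 238.4 CPM in IRF4-RV cells, so that replicate 2 of IRF4-RV stood apart. The sum of the family was 1083 CPM in that library and 1059 CPM in the other. Without it the log2 fold changes were 7.69 for *Iigp1*, 2.34 for *Irgm1*, 2.98 for *Irgm2*, 3.02 for *Igtp*, 2.005 for *Ifi47*, 2.30 for *Tgtp1*, 2.43 for *Tgtp2* and 2.49 for *Gvin1*. The pre-B cell markers summed to 3196 and 3335 CPM in EV-RV cells against 2176 and 2160 CPM in IRF4-RV cells. Of the 8 tested, 4 were lower, with log2 fold changes of -1.30 for *Igll1*, -1.49 for *Vpreb1*, -1.55 for *Dntt* and -0.29 for *Il7r*. *Cd79a*, *Cd79b*, *Pax5* and *Ebf1* were not called. The part of these markers in the family's values was not tested.

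**Figure D2:**
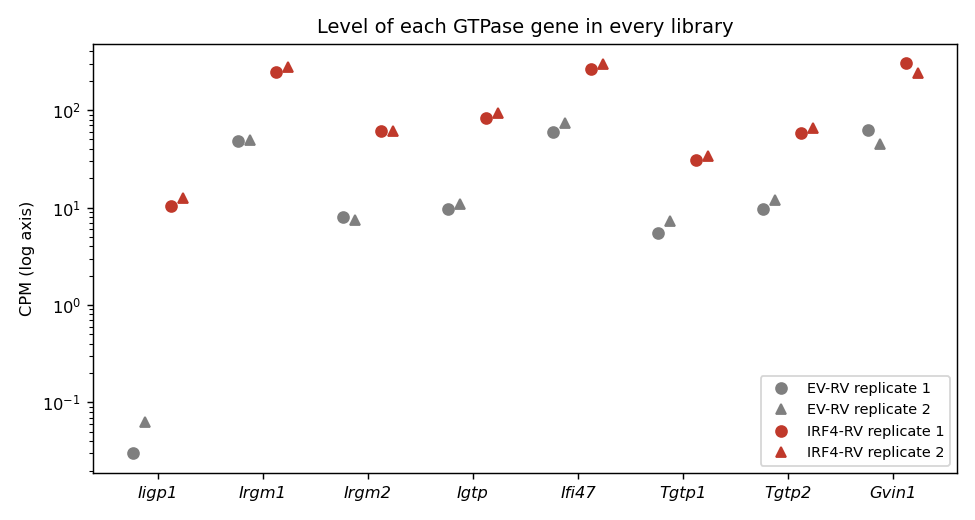
Level of each of the 8 genes in every library, in CPM on a log axis. Grey symbols are EV-RV and red symbols IRF4-RV, circles are replicate 1 and triangles replicate 2. The red symbols lie above the grey ones for all 8 genes, and *Iigp1* is near 0 with EV-RV (0.03 and 0.0634 CPM).

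The regulatory genes are described first. *Irgm1* (ENSMUSG00000046879), whose product controls the effector GTPases and is linked to autophagy, lies on the minus strand at 11:48861968-48871683. It had 1617 and 1565 counts in EV-RV cells against 8372 and 10111 counts in IRF4-RV cells. Its level rose from 49.05 ± 0.829 to 262.5 ± 21.6 CPM (SD, n = 2), a log2 fold change of 2.42 (standard error 0.0878). Both IRF4-RV libraries, at 247.2 and 277.7 CPM, lay far above the EV-RV libraries, which differed little.

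*Igtp* (ENSMUSG00000078853), which encodes Irgm3, a protein of the endoplasmic reticulum and of lipid droplets, lies on the plus strand at 11:58199556-58207591. It had 323 and 347 counts in EV-RV cells against 2835 and 3411 counts in IRF4-RV cells, which is 10.34 ± 0.937 and 88.7 ± 7.06 CPM (SD, n = 2). *Irgm2* (ENSMUSG00000069874), which encodes a regulator located at the Golgi, lies at 11:58199618-58222782 on the same strand, and its annotation runs across nearly all of *Igtp*. It had 268 and 234 counts in EV-RV cells against 2055 and 2243 counts in IRF4-RV cells, or 7.727 ± 0.432 and 61.14 ± 0.658 CPM (SD, n = 2). The difference was 3.10 (standard error 0.111) for *Igtp* and 2.98 (standard error 0.0984) for *Irgm2* on the log2 scale. After *Iigp1* these were the largest of the 8. The genes share 162 exon bases, 8.01% of the exon bases of *Igtp* and 4.39% of those of *Irgm2*, so that reads in this stretch cannot be assigned to 1 of them.

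Among the effectors, *Ifi47* (ENSMUSG00000078920), which encodes the effector Irgd, lies on the plus strand at 11:49076587-49096974. It had 1975 and 2341 counts in EV-RV cells against 9040 and 10793 counts in IRF4-RV cells. The level was 66.72 ± 10.6 CPM with EV-RV and 281.7 ± 20.9 CPM with IRF4-RV (SD, n = 2). Its log2 fold change of 2.08 (standard error 0.119) was the smallest of the 8. It shares 111 exon bases with *Olfr56* on the same strand and 106 with *Gm12188* on the opposite strand.

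*Tgtp1* (ENSMUSG00000078922) and *Tgtp2* (ENSMUSG00000078921) encode near-identical copies of the effector Irgb6. They lie on the minus strand at 11:48985327-48994172 and 11:49057194-49064206. *Tgtp1* was counted 182, 228, 1051 and 1232 times, and *Tgtp2* 326, 374, 1966 and 2363 times, in the EV-RV and then the IRF4-RV libraries. Their levels moved from 6.343 ± 1.26 to 32.44 ± 1.98 CPM and from 10.82 ± 1.48 to 61.48 ± 4.85 CPM (SD, n = 2). The log2 fold changes of 2.36 (standard error 0.144) and 2.51 (standard error 0.122) differ by less than the sum of their standard errors, and no difference between the copies can be read from them. Their coding sequences differ at 4 of 1245 aligned positions. Of all 100-base words in the transcripts of *Tgtp1*, 70.3% also occur in *Tgtp2*, and 76.8% of those of *Tgtp2* occur in *Tgtp1*. Summed as 1 gene, the log2 fold change of the pair was 2.45 (standard error 0.124), between the values of the copies.

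*Iigp1* (ENSMUSG00000054072), which encodes Irga6, the best studied effector, lies apart from the others on the plus strand at 18:60376027-60392634. It had 1 and 2 counts in EV-RV cells against 348 and 460 counts in IRF4-RV cells. With EV-RV it was thus below the 3 counts that can be shown, and with IRF4-RV it reached 10.28 and 12.63 CPM. The ratio was 249, with a 95% interval from 84.8 to 1210 that covers counting error only. The fitted log2 fold change of 7.84 (standard error 0.321) depends on how so low a level is treated.

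*Gvin1* (ENSMUSG00000045868) lies on the minus strand at 7:106156556-106215326. It had 2111 and 1407 counts in EV-RV cells against 10202 and 8798 counts in IRF4-RV cells. The level was 53.95 ± 13.2 CPM with EV-RV and 271.4 ± 42.1 CPM with IRF4-RV (SD, n = 2), with a log2 fold change of 2.33 (standard error 0.173). Of its 100-base words, 97.8% occur in other genes, and 96.7% occur in *Gm4070*, whose coding sequence differs from that of *Gvin1* at 3 of 7281 positions. *Gm4070* was counted 1982, 1346, 9704 and 8392 times, close to *Gvin1* in every library, so that the values of the pair are not separate measurements. Summed with its 4 annotated copies, the log2 fold change of *Gvin1* was 1.96 (standard error 0.191), lower than alone.

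The share of each gene in the summed CPM of the family, which grows with gene length as well as with level, is given next. *Ifi47* supplied 29% and 36% in EV-RV cells against 25.2% and 27.4% in IRF4-RV cells. The share of *Igtp* was 4.75% and 5.34% in EV-RV cells against 7.9% and 8.65% in IRF4-RV cells, and that of *Irgm2* 3.94% and 3.6% against 5.73% and 5.69%. *Iigp1* went from 0.0147% and 0.0308% to 0.97% and 1.17%. The shares of *Igtp*, *Irgm2* and *Iigp1* were higher, and that of *Ifi47* lower, in both IRF4-RV libraries than in both EV-RV libraries. The shares of *Irgm1*, *Gvin1*, *Tgtp1* and *Tgtp2* overlapped between the groups.

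To set the levels of different genes side by side, they were divided by length, as CPM per kb of exon. With IRF4-RV the order was *Ifi47* (114 ± 8.44), *Irgm1* (45.2 ± 3.71), *Igtp* (43.9 ± 3.49), *Gvin1* (30.1 ± 4.68), *Tgtp2* (20.9 ± 1.65), *Irgm2* (16.6 ± 0.178), *Tgtp1* (10.1 ± 0.619) and *Iigp1* (1.97 ± 0.287 CPM per kb, SD, n = 2). *Irgm1* (42.5 and 47.8 CPM per kb) and *Igtp* (41.4 and 46.3 CPM per kb) overlapped, whereas the other neighbours did not. With the longest transcript as length they did not overlap, at 64.5 and 72.5 CPM per kb for *Irgm1* against the same values for *Igtp*, and the mean of *Iigp1* was 3.67 CPM per kb. With EV-RV the order was *Ifi47* (27 ± 4.3), *Irgm1* (8.44 ± 0.143), *Gvin1* (5.99 ± 1.46), *Igtp* (5.12 ± 0.463), *Tgtp2* (3.68 ± 0.503), *Irgm2* (2.09 ± 0.117), *Tgtp1* (1.98 ± 0.392) and *Iigp1* (0.00802 ± 0.00406 CPM per kb). There *Gvin1* overlapped *Igtp*, and *Irgm2* overlapped *Tgtp1*. The only exchange of places between the groups, *Igtp* with *Gvin1*, therefore starts from levels that overlapped. *Ifi47* was ahead of each of the others in every library. The levels of *Gvin1* and the *Tgtp* copies depend on how shared reads were counted.

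**Figure D3:**
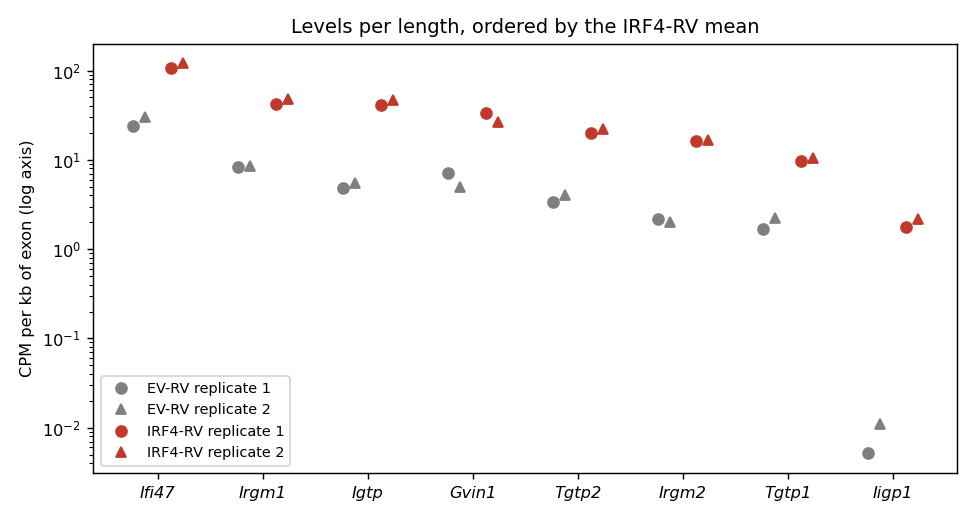
Level per length of the 8 genes in every library, in CPM per kb of exon on a log axis, ordered by the IRF4-RV mean. Grey symbols are EV-RV and red symbols IRF4-RV, circles are replicate 1 and triangles replicate 2. *Ifi47* leads in both groups, and *Irgm1* and *Igtp* overlap with IRF4-RV at this length.

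The family was not chosen on the difference between replicate numbers, so this difference can be tested. Replicate numbers name the libraries and are not stated to mark a shared day or culture. The p-values therefore concern only these 4 libraries under these labels. Comparing replicate 2 with replicate 1 within the groups, 2 of the 8 genes were called by edgeR at an FDR of 0.1, against 9.91% of all genes tested. With DESeq2 1 of the 8 was called, against 1.38% of all genes tested, and with all genes of at least 1 count 2 of the 8, against 2.74%. *Gvin1* was lower in replicate 2, by a log2 difference of -0.40 (standard error 0.0621, edgeR adjusted p = 2.35e-08), in both groups. *Ifi47* was higher in replicate 2, by 0.23 (standard error 0.0609, edgeR adjusted p = 0.00482), also in both groups, but this call was lost with DESeq2 (adjusted p = 0.112). The other 6 genes were not called, with edgeR adjusted p from 0.173 for *Tgtp2* to 0.947 for *Irgm2* and differences from -0.02 to 0.31. The annotated copies of *Gvin1* were lower in replicate 2 as well, by -0.39 for *Gm4070* (edgeR adjusted p = 1.34e-07), -0.50 for *Gm1966* (4.04e-11), -0.50 for *Gm8995* (3.12e-08) and -0.43 for *Gm8979* (0.0693). As *Gvin1* shares most of its sequence with them, these are not independent measurements. The 6 stroma markers tested were all higher in replicate 2, by 1.45 for *Col1a1* to 1.76 for *Pdgfrb* (edgeR adjusted p from 1.4e-69 for *Col1a2* to 0.002 for *Pdgfrb*), and their part in the differences of *Gvin1* and *Ifi47* was not tested.

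The difference between replicate numbers varied with transcript length over all genes. Among genes whose longest transcript is under 2 kb, the median difference of replicate 2 from replicate 1 was 0.05 and 0.636% were called lower. Among genes of at least 8 kb the median was -0.20 and 34.4% were called lower, with values in between at the lengths between. The longest transcript of *Gvin1* is 9.01 kb and that of *Ifi47* 1.77 kb. The part of length in the differences of these genes was not tested. The direction between IRF4-RV and EV-RV held for each replicate number, since *Gvin1* was 63.27 against 301.2 CPM in replicate 1 and 44.63 against 241.7 CPM in replicate 2, and *Ifi47* was 59.19 against 266.9 CPM and 74.25 against 296.5 CPM.

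**Figure D4:**
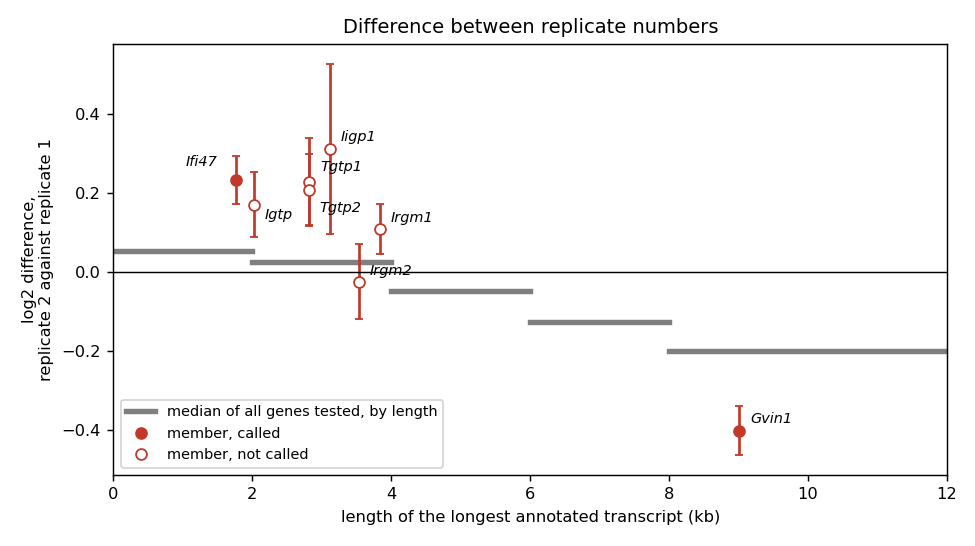
Difference of replicate 2 from replicate 1 on the log2 scale for each of the 8 genes (red, bars are standard errors, filled where called by edgeR at an FDR of 0.1) against the length of the longest annotated transcript in kb. Grey lines give the median of all genes tested in each length range, the last range being 8 kb and above. *Gvin1*, at 9.01 kb, lies below 0 and *Ifi47*, at 1.77 kb, above it.

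Regulators and effectors were each nearest to their own kind in coding sequence. The 7 IRG genes encode between 407 and 423 residues and *Gvin1* encodes 2427. Among the regulators, identity of the aligned coding sequence was 67.3% between *Irgm2* and *Igtp*, 64.6% between *Irgm1* and *Igtp* and 63% between *Irgm1* and *Irgm2*. Between effectors it was between 55% and 57.7%, apart from the 99.7% of the *Tgtp* pair, and between a regulator and an effector it was between 50% and 53.9%. *Irgm1* nonetheless moved by a log2 fold change of 2.42, nearer to the *Tgtp* copies than to *Irgm2* and *Igtp*, with which it shares more sequence.

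Of 18 close relatives listed from the annotation, 15 were found in the count table and 10 passed the filter on low counts. All 10 were higher with IRF4-RV by edgeR at an FDR of 0.1, against 16.0% of all genes tested, with a median log2 fold change of 1.85. This count is not independent of the 8 genes, since 4 of the relatives are copies of *Gvin1* and *Gm12185* shares exon bases with *Tgtp1*. With DESeq2 9 were called, the call of *Gm8995* being lost (adjusted p = 0.122). The largest rise was that of *Gm12185*, a neighbour of *Tgtp1* that shares 223 exon bases with it. It had 11 and 7 counts in EV-RV cells against 154 and 162 counts in IRF4-RV cells, 16.3-fold higher. It passed the filter only through its IRF4-RV libraries, so no test is read from it. *Gm12250* rose from 226 and 226 counts to 1791 and 2207 counts (3.03, standard error 0.114, edgeR adjusted p = 2.9e-06) and *Gm5431* from 32 and 37 to 299 and 307 counts (3.01, standard error 0.189, edgeR adjusted p = 3.53e-05). GENCODE M21 lists *Gm12250* as a processed pseudogene, while RefSeq lists a protein-coding gene. The tandem genes *9930111J21Rik1* and *9930111J21Rik2* rose by 1.21 and 1.37. *Irgq*, a distant and constitutively expressed relative, had the smallest rise (0.47, standard error 0.0921, edgeR adjusted p = 0.00859). Of the 5 relatives that did not pass the filter, *Gm4841* went from 0 counts in both EV-RV libraries to 10 and 31 counts, at least 6.2-fold higher when set against 3 counts in each EV-RV library. *Gm4951* went from 1 and 2 counts to 8 and 30 counts, a ratio of 11.7 with a 95% counting interval from 3.71 to 59.2. *Gm12187*, *F830016B08Rik* and *Irgc1* had at most 4 counts in any library.

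**Figure D5:**
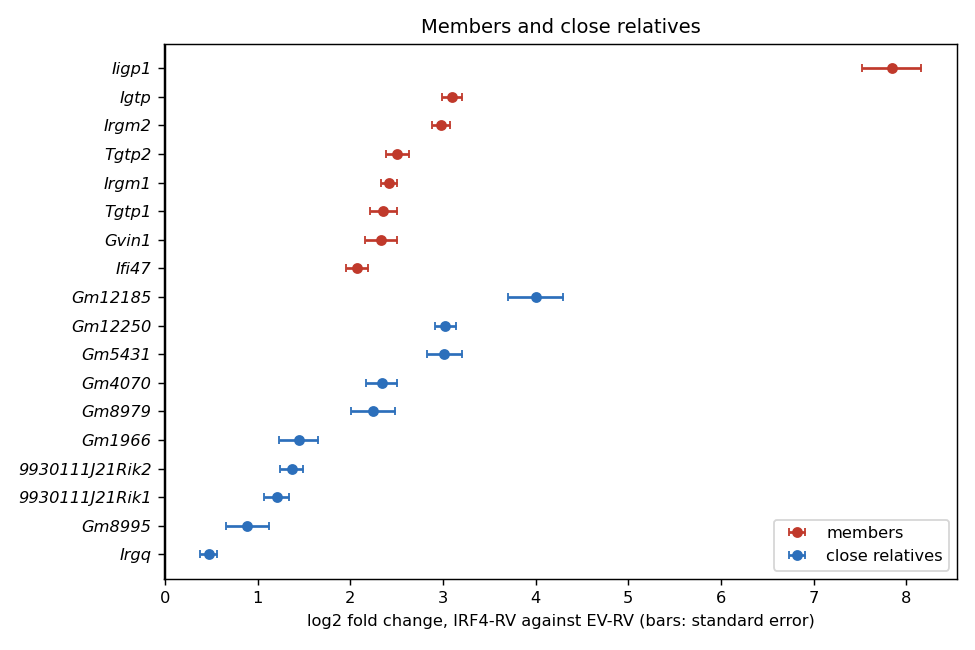
Log2 fold change of IRF4-RV against EV-RV with its standard error (bars) for the 8 genes (red) and the 10 tested relatives (blue), each ordered by size. All points lie to the right of 0, *Iigp1* at 7.84 and *Irgq* at 0.47 being the ends of the range.

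The genes of the pathway upstream were followed from ligand to transcription factor. Among the interferons, *Ifng*, which encodes interferon-γ, was at 0 counts in both EV-RV libraries and at 29 and 35 counts with IRF4-RV. *Ifng* was at least 9.82-fold higher when set against 3 counts in each EV-RV library. It was the only interferon gene to pass the filter on low counts, and only through its IRF4-RV libraries, so no test is read from it. *Ifnb1* had at most 3 counts in any library, *Ifnk* had 1 count in 1 library, and *Ifna1*, *Ifna2*, *Ifna4*, *Ifna5* and *Ifne* were at 0 counts in all 4 libraries. A count of 0 allows up to 3 counts in a library of this depth.

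Of 7 interferon receptor and JAK genes tested, 3 rose, 0 fell and 4 were not called, with a median log2 fold change of 0.31. Of all genes tested, 16.0% were higher and 13.7% lower. The number called ran from 2 without replicate 1 of IRF4-RV to 5 with the replicate number as a block. *Ifnar1* and *Ifnar2*, the type I receptor, rose by 1.02 (standard error 0.115, edgeR adjusted p = 0.000675) and 0.69 (standard error 0.0863, edgeR adjusted p = 0.00116). *Ifngr2*, a chain of the interferon-γ receptor, rose by 0.41 (edgeR adjusted p = 0.0164), and the call was lost without replicate 1 of IRF4-RV (edgeR adjusted p = 0.121). The other chain, *Ifngr1*, was not called, with 1768 and 1751 counts against 2014 and 1987 (edgeR adjusted p = 0.609). Whether the receptors differ from each other in their response was not tested. *Jak2*, the kinase of the interferon-γ receptor, was not called (0.31, edgeR adjusted p = 0.113), but it was called with the replicate number as a block (edgeR adjusted p = 0.00375), with all genes of at least 1 count (0.0564), without replicate 1 of EV-RV (0.0363) and without replicate 2 of IRF4-RV (0.0901).

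Of 9 transcription factor genes of the interferon response, 6 rose, 1 fell and 2 were not called, beside 16.0% higher and 13.7% lower among all genes tested, with a median log2 fold change of 0.72. *Stat2* and *Irf9*, which encode subunits of a complex that binds the ISRE, rose by 1.88 and 1.72, and *Irf7* by 1.93 (standard error 0.127, edgeR adjusted p = 4.53e-05). *Irf1*, a direct activator of many interferon-γ-induced genes, rose by 1.38 (standard error 0.0955, edgeR adjusted p = 5.51e-05). *Nlrc5*, a transactivator of MHC class I genes, rose by 0.72 and *Irf2* by 0.61. *Irf8*, the closest paralog of *Irf4*, fell by 0.32 on the log2 scale (edgeR adjusted p = 0.0152), a call that was lost without replicate 2 of IRF4-RV (edgeR adjusted p = 0.134). *Irf3* and *Ciita* were not called.

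Of 7 negative regulators tested, 2 rose and 0 fell, beside 16.0% higher and 13.7% lower among all genes tested. *Usp18*, which encodes the protease that removes ISG15 and dampens the type I receptor, was counted 49, 51, 2277 and 3023 times and rose by 5.60 (standard error 0.161, edgeR adjusted p = 1.38e-06). *Ptpn1*, a phosphatase that acts on JAK kinases, rose by 0.25 (edgeR adjusted p = 0.048), but was not called without replicate 1 of EV-RV or either library of IRF4-RV, nor with library size only (edgeR adjusted p from 0.134 to 0.349). *Socs1* and *Socs3*, feedback inhibitors of JAK kinases, were not called, at 26.43 ± 2.45 against 25.44 ± 1.11 CPM and 29.01 ± 2.08 against 30.73 ± 0.784 CPM (SD, n = 2).

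Partners that act with IRG proteins on membranes moved by different amounts. The list of 13 autophagy genes held the conjugation machinery, the cargo receptor gene *Sqstm1* and *Becn1*. Of them 7 rose and 1 fell, beside 16.0% higher and 13.7% lower among all genes tested, with a median log2 fold change of 0.36. *Map1lc3b*, *Gabarap* and *Gabarapl2*, which encode ubiquitin-like proteins that are attached to membranes, rose by 0.54 (standard error 0.0768, edgeR adjusted p = 0.00213), 0.43 and 0.42. *Sqstm1*, which encodes the cargo receptor p62, rose by 0.46 (standard error 0.0755, edgeR adjusted p = 0.00433). *Atg12* rose by 0.36, *Atg10* by 0.56 and *Map1lc3a* by 0.89, while *Atg3*, which encodes a conjugating enzyme, fell by 0.27 (edgeR adjusted p = 0.0493). Without replicate 2 of IRF4-RV, *Atg12*, *Atg10*, *Map1lc3a* and *Atg3* were not called and 4 of the 13 remained called. Without replicate 1 of EV-RV, 5 were called, and with the replicate number as a block 11 were called. *Atg5*, *Atg7*, *Atg16l1*, *Gabarapl1* and *Becn1* were not called.

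Of 11 guanylate-binding protein genes, 8 were tested and all 8 rose, beside 16.0% of all genes tested, with a median log2 fold change of 2.67. *Gbp6* and *Gbp10* passed the filter on low counts only through their IRF4-RV libraries, so this count is a description and no test is read from it. *Gbp9* rose by 3.32 (standard error 0.119, edgeR adjusted p = 2.66e-06), *Gbp5* by 2.67, *Gbp4* by 2.66 and *Gbp2* by 2.05. *Gbp6* rose from 6 and 10 to 257 and 267 counts (4.90, standard error 0.273). *Gbp10* was at 1 count in each EV-RV library and at 76 and 73 counts with IRF4-RV, a ratio of 68.8 with a 95% counting interval from 18.7 to 573. *Gbp7* had the smallest rise (0.49, edgeR adjusted p = 0.0653) and was not called without replicate 2 of EV-RV or with library size only (edgeR adjusted p = 0.169 in both). The 3 genes left out by the filter, *Gbp2b*, *Gbp8* and *Gbp11*, had at most 11 counts in any library.

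All genes tested apart from the 8, those of the lists included, were ranked by likeness to the median of the 8 genes over the 4 libraries. Likeness was measured by Euclidean distance of log2 CPM from the EV-RV mean. The nearest were *BC035044* (distance 0.0463), *Ifi27l2a* (0.103), *Papln* (0.128), *BC147527* (0.137) and *Gm42870* (0.138). *Ifi27l2a* is an interferon-induced gene and *Papln* encodes papilin, a protein of the extracellular matrix. *BC035044* had 560 and 621 counts in EV-RV cells against 3513 and 3841 counts in IRF4-RV cells. *Ifi27l2a* had 772 and 796 counts in EV-RV cells against 4545 and 5394 counts in IRF4-RV cells. *Gm42870* was at 4 counts in each EV-RV library, so that its likeness rests on few reads. With only 4 libraries, likeness mostly reflects the size of the difference between the groups.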

How the data were processed

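Bulk RNAseq of T8 cells was analyzed, with 2 EV-RV and 2 IRF4-RV libraries. The sample labels gave the groups and replicate numbers. Titles and tissue give the line as T8, which was used, while the labels' protocols give T11. According to the submitters' processing notes, the authors checked reads with FastQC (version 0.11.2), aligned them to GRCm38 with STAR (version 2.4.0j) and counted them per gene with featureCounts. The raw counts, which the authors deposited as whole numbers without normalization, cover 55359 Ensembl identifiers, 52083 of which matched GENCODE M21, the source of symbols, exons and coordinates. The strand setting and the treatment of multi-mapping reads are not given in the sources used here, so that genes with near-identical copies or overlapping exons are uncertain.

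Genes passing filterByExpr were tested in R 4.3.3 with edgeR 4.0.16 (TMM, quasi-likelihood F test, Benjamini-Hochberg adjustment over 14637 genes, FDR 0.1) without a block. CPM were scaled with the TMM factors. Folds against a group at 0 counts were set against 3 counts per library. Replicates differed by more than sampling noise (chi-square per degree of freedom 14.1 and 13.1) and were used as separate samples. The procedure was tested on simulated data, but the outcome is not given here and no support is drawn from it. The members and lists were chosen with earlier results of these data known. Named were the 8 genes, all genes of the lists, *Irf4*, and the 5 tested genes nearest in pattern (log2 CPM with a prior count of 2). Coding sequences were aligned with Biopython 1.88. The nucleotide-binding motif of the proteins, and the promoters of *Iigp1* and *Gvin1*, were not analysed here, and 2 further genes of the lists are not reported here. Alternatives were DESeq2 1.42.0, the replicate block, scaling by the size factors of DESeq2 or by library size, an FDR of 0.05, a minimum of 10 counts in 2 libraries or of 1 count in all, another gene length, summed copies, and leaving out each library in turn.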

Additional observations from a re-analysis of the deposited data

How the results depend on the processing

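All 8 genes kept their direction in all 82 alternatives computed for their fold changes. They were chosen for standing higher in these same libraries, so this describes the processing and lends no support to the difference. Leaving out 1 library at a time, the log2 fold change stayed between 1.91 and 3.20 for the other 7 genes and between 7.41 and 8.42 for *Iigp1*. The group left with 1 library was assumed to vary like the other. The number of all genes called was between 3573 and 3646 in these fits, against 4349 with all libraries, 3661 with DESeq2 and 3347 at an FDR of 0.05. Of the negative regulators, 1 was called with library size only, and between 1 and 2 with each library left out. Of the autophagy genes, between 4 and 7 were called with each library left out, against 8. Replicate numbers name the libraries and are not stated to mark a shared day or culture. Their deviations correlated across genes with r = 0.26, and with 2 pairs the pairing is not shown. With the replicate block 6394 genes were called, all 8 genes of the family among them, and 5 of the receptor and JAK genes in place of 3. The replicate difference was called for 1450 genes, but for 202 with DESeq2 and for 849 when all genes with at least 1 count were tested. With DESeq2 that of *Gvin1* had an adjusted p of 0.000368 and that of *Ifi47* one of 0.112. It could not be fitted with a library left out. The summed level per length with IRF4-RV was 282.7 CPM per kb with the union of exons and 355.7 with the longest transcript as length, and the order of the genes with IRF4-RV was the same. The cause of these changes was not tested. Alternatives were sorted over the results of the family, the lists and the whole table, apart from single genes of the lists. Of them, 197 left a difference on its side of the threshold, a level within its spread, or a count of called genes within a set factor. A further 16 moved the result beyond that, and 1 lost a call. The 197 include the change from 4349 to 6394 genes called with the replicate block, so they are not all unchanged results. With 2 libraries per group and EV-RV counts of 1 and 2, depth limits *Iigp1* most.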
